A study of Mus musculus with 20 samples.

Results

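A set of 10 genes that encode secreted bone morphogenetic protein (BMP) ligands and extracellular regulators of them was followed through the stromal, endothelial and mural cells of mouse interscapular brown adipose tissue (iBAT). The ligands were Bmp2, Bmp3, Bmp4, Bmp5, Bmp6 and Gdf10, and the regulators were Bmper, Chrdl1, Fst and Grem1. The genes were chosen by name, with earlier results of these data known, and each of the 10 symbols matched 1 of the 31053 genes listed.

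BMPs are dimeric ligands of the TGF-beta superfamily. They bring together type I and type II serine/threonine kinase receptors, which phosphorylate SMAD proteins that switch on the Id genes and the inhibitory SMADs. Secreted proteins such as follistatin, gremlin and the chordin family bind the ligands outside the cell and limit, or in some settings carry, the signal. In adipose tissue the pathway is known for steering mesenchymal cells toward the adipocyte lineage.

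The cells came from the stromal vascular fraction, split with magnetic beads into an immune fraction (Lin+) and a fraction depleted of immune cells (Lin-), and each library pooled 3 to 4 mice of 8 to 14 weeks. Male C57BL/6J mice were kept at room temperature (RT, in housing that the labels give as 24 °C with a tolerance), exposed to 6 °C for 4 days (COLD) or given the ADRB3 agonist CL316,243 (CL) by osmotic pump for 4 days at 0.75 nmol per hour, with 2 Lin- libraries in each group. The Adrb1 line added 1 Lin- library each of wild-type and knockout females at each temperature. All mice of that line carried Adrb1 fl/fl and were given tamoxifen. The WT mice lacked Pdgfra-CreER and the KO mice carried it, so that recombination was directed to Pdgfra-expressing cells such as the stromal cells, not to the endothelium. The RT libraries of the Adrb1 line were made with version 3 of the droplet kit and its cold libraries with version 2, and the methods also give different collection days, so in that line kit, day and temperature cannot be told apart. All 6 C57 libraries used version 2. The labels give no further separation of the pools within a group, so p-values measure the spread between these libraries.

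The members were read in 9 classes of Lin- cells, named "-like" from marker genes: 3 adipose stromal cell classes (ASC1, ASC2 and ASC3), a stromal cluster led by Cilp, Myoc and Thbs4 (the Cilp cluster), capillary, arterial and venous endothelial cells (VEC), pericytes, and vascular smooth muscle cells (VSMC). All 11 ASC2, 8 capillary, 8 pericyte and 8 VSMC markers were highest in their own class. This held for 7 of 10 ASC1 markers, 8 of 10 ASC3 markers, 7 of 8 arterial markers and 7 of 8 venous markers, and for 2 of 5 markers listed for Cilp stromal cells. The 10 libraries kept 66339 of 89637 Lin- barcodes, with 7857161 to 31325801 unique molecular identifiers (UMIs) each. The second C57 RT library stood apart, with 27.958% of its barcodes kept against 57.731% to 96.221% in the other libraries, and the C57 tests of treatment below were also run without it. A pair of Lin- libraries shared at most 193 barcodes, 2.039% of the smaller library. Levels are CPM, the UMI counts summed over a class in 1 library and scaled to a common total. They are compared within a gene only, because the method reads transcript ends and its efficiency differs between genes. A lower CPM in a class cannot tell fewer expressing cells from less RNA per cell.

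At RT, 9 of the 10 members had a class of highest expression, and these classes were spread over the tissue. Bmp5 and Bmper were highest in ASC1-like cells, Bmp3 in ASC2-like cells, Gdf10 and Chrdl1 in ASC3-like cells, Fst in the Cilp cluster, Bmp2 in VSMC-like cells, Bmp6 in capillary VEC-like cells and Bmp4 in venous VEC-like cells. The highest class was the same for all 9 when cells under 500 UMIs were left out and when each cell was thinned to 1000 UMIs and the share of cells with a UMI was taken. Because the classes come from clustering, differences between classes are given as values without a test. All 10 members were left out of the genes used for clustering. From the same data the study had already named Bmper as a marker of its ASC1 and Gdf10 as a marker of its ASC3. Where these members were highest was therefore known beforehand.

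**Figure D1:**
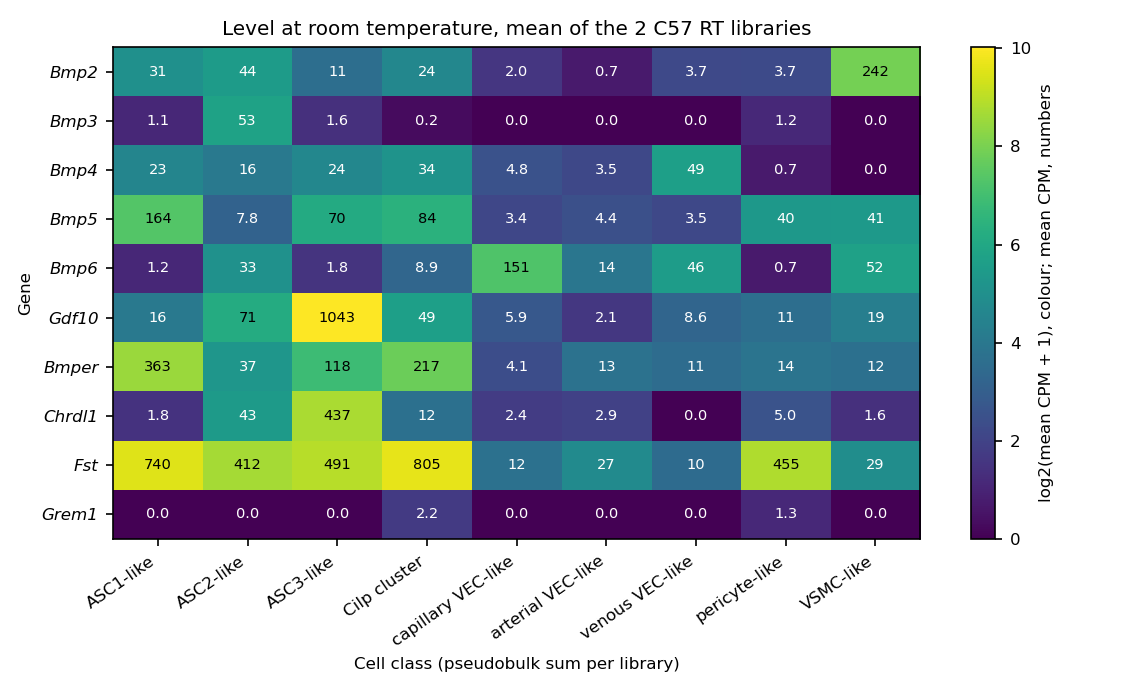
Mean level of the 10 members (rows) in 9 classes of Lin- cells (columns) over the 2 C57 RT libraries. Numbers are mean CPM and colour is log2(mean CPM + 1). Rows are read one gene at a time. Gdf10 stands out in ASC3-like cells at 1043 CPM against 71.3 CPM in ASC2-like cells, and Grem1 is at or near 0 throughout.

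Bmp2, a ligand best known for bone and vascular development (chr2:133552159-133562885, GRCm38, plus strand), was highest in VSMC-like cells. It measured 207 and 277 CPM in the 2 RT libraries, 5.502 times the mean of the next class, ASC2-like cells (34.8 and 53.3 CPM). ASC2-like and ASC1-like cells (22.3 and 40.6 CPM) overlapped at RT, as did ASC1-like cells and the Cilp cluster. Pericyte-like and endothelial classes had at most 7.37 CPM at RT. VSMC-like cells had 248 and 185 CPM in the cold and 177 and 179 CPM under CL. The cold libraries overlapped the RT libraries, and the CL libraries lay below them.

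Bmp3 (chr5:98854415-98884396, plus strand), an atypical ligand known to act against BMP signalling, was nearly restricted to ASC2-like cells among the 9 classes, at 35.3 and 71.3 CPM at RT, 33.149 times the mean of the next class. Within that class it differed between clusters. The cluster led by Krtdap had 62.6 and 126 CPM, and the cluster led by Cxcl13 had 6.76 and 15.8 CPM. The Krtdap cluster was the higher of the pair in all 10 libraries. In the WT library at RT a further 487 ASC2-like cells came from a cluster found almost entirely in that library. ASC3-like cells had 0.608 to 3.44 CPM in the 6 C57 libraries, but 35.2 and 30.5 CPM in the RT libraries of the Adrb1 line.

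Bmp4 (chr14:46383520-46390669, minus strand), a ligand linked to commitment of mesenchymal cells to fat, was shared between the endothelium and the stroma. Venous VEC-like cells had 46.7 and 51.1 CPM at RT, from only 6 to 17 UMIs in each of the 10 libraries, followed by the Cilp cluster at 28.8 and 40.2 CPM. ASC3-like cells (27.3 and 21.1 CPM) overlapped ASC1-like cells (19.5 and 26 CPM), and both lay above ASC2-like cells (13.7 and 17.9 CPM). None was counted in VSMC-like cells of the RT libraries.

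Bmp5 (chr9:75775364-75900310, plus strand), a ligand of the same subgroup as Bmp6, was highest in ASC1-like cells, at 123 and 204 CPM. The Cilp cluster (47.0 and 121 CPM) overlapped ASC3-like cells (46.6 and 92.6 CPM), and these overlapped VSMC-like cells (20.8 and 61.1 CPM). ASC2-like cells (4.57 and 11 CPM) were below both other ASC classes. ASC1-like cells held 72.1% and 62.6% of all Bmp5 UMIs of the 2 RT libraries.

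Bmp6 (chr13:38345107-38500302, plus strand), known as a signal from endothelium that sets iron uptake through hepcidin in the liver, was highest in capillary VEC-like cells, at 104 and 198 CPM at RT. VSMC-like cells (28 and 75.6 CPM) and venous cells (46.9 and 44.5 CPM) overlapped, and arterial cells had 14.1 and 14.9 CPM. ASC2-like cells had 27.7 and 37.9 CPM, whereas ASC1-like and ASC3-like cells had means of 1.19 and 1.83 CPM. At RT, VEC-like cells had 52.2% and 53.0% of the Bmp6 UMIs and ASC2-like cells had 33.3% and 26.7%.

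Gdf10 (chr14:33923587-33937983, plus strand), also called BMP3b and close in sequence family to Bmp3, was concentrated in ASC3-like cells, at 805 and 1280 CPM at RT. ASC2-like cells followed with 62.4 and 80.1 CPM and the Cilp cluster with a mean of 49.1 CPM. In ASC2-like cells the order of clusters was the reverse of that of Bmp3, with 106 and 139 CPM in the Cxcl13 cluster and 20.2 and 21.3 CPM in the Krtdap cluster. ASC1-like cells had 14.0 and 17.4 CPM at RT.

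Among the regulators, Bmper (chr9:23223076-23485200, plus strand), a chordin-like secreted protein that binds BMPs, was highest in ASC1-like cells, at 301 and 425 CPM at RT. A gradient followed through the Cilp cluster (188 and 246 CPM), ASC3-like cells (96.0 and 139 CPM) and ASC2-like cells (28.4 and 46.2 CPM), with no overlap between neighbours in that order. The endothelial and mural classes had means of at most 13.5 CPM. Bmper and Gdf10 were the members that the study located in tissue sections by fluorescence in situ hybridisation, with 32 and 24 probes of designed sequence.

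Probes of each set are shown because they mark where these transcripts were read in the tissue. Each is complementary to the coding sequence, 22 of the 32 Bmper probes and 15 of the 24 Gdf10 probes lay wholly in coding exons, and the letters are the probe 5′ to 3′. The first pair lies in exon 13 of Bmper (chr9:23406499-23406533 and chr9:23406540-23406574), and the second pair in exon 3 of Gdf10 (chr14:33934331-33934365 and chr14:33934375-33934409).
Bmper probe 24: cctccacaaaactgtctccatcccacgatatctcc
Bmper probe 25: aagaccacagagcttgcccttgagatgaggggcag
Gdf10 probe 19: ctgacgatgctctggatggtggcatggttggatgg
Gdf10 probe 20: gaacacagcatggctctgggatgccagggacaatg

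Chrdl1 (chrX:143285674-143394262, minus strand), chordin-like 1, a secreted BMP antagonist, was the other member concentrated in ASC3-like cells, at 342 and 532 CPM at RT. ASC2-like cells had 32.1 and 53.1 CPM, the Cilp cluster had a mean of 12.1 CPM, and ASC1-like cells had 0.797 and 2.81 CPM. ASC1-like cells thus stood at the low end for Chrdl1 and at the high end for Bmper.

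Fst (chr13:114452290-114458951, minus strand), follistatin, which binds activins and several BMPs, was spread over the stromal classes and pericyte-like cells. The Cilp cluster (692 and 918 CPM) overlapped ASC1-like cells (652 and 828 CPM) at RT. ASC3-like cells (530 and 452 CPM), pericyte-like cells (498 and 413 CPM) and ASC2-like cells (388 and 435 CPM) overlapped in turn. VSMC-like and endothelial classes had means of 10.5 to 29.4 CPM.

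Grem1 (chr2:113746164-113758646, minus strand), gremlin 1, a BMP antagonist, was hardly counted. A whole Lin- library held 0 to 14 Grem1 UMIs, the highest class level was 4.46 CPM, in the Cilp cluster of the second RT library, and ASC2-like, capillary, arterial and venous cells had 0 in all 10 libraries. Grem1 passed the filter on low counts in no class, so it has no value in the edgeR fits reported here, and it was not called in any class without that filter or with DESeq2. These counts say that it was not detectable at this depth in those classes, not that it was absent.

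Some members resembled each other over the classes. Over 54 points (9 classes in 6 C57 libraries), log2(CPM + 1) gave a Pearson r of 0.833 for Gdf10 with Chrdl1, 0.836 for Bmper with Fst and -0.719 for Bmp6 with Fst. The points share libraries and clusters, so r is a description. Among 12617 genes, the closest to Gdf10 were C2, Aox3 and Inmt (r 0.891, 0.886 and 0.874), the closest to Chrdl1 were Vit, Vwc2 and Sfrp4 (0.87, 0.87 and 0.868), and the closest to Bmp3 were Aldh1a3, Bmp7 and Tmem28 (0.88, 0.874 and 0.868). The closest to Bmp5 were Scarf2, Sema5a and Spon1 (0.887, 0.883 and 0.873). Bmper was closest to Cyp1b1, Angptl1 and Pycr1 (0.935, 0.9 and 0.9), and Fst to Mmp14, Plxdc2 and Kdelr3 (0.95, 0.944 and 0.943). Bmp6 was closest to Mgll, Lims2 and Plekho1 (0.862, 0.838 and 0.818), Bmp2 to Cbx6, Meis2 and Usp2 (0.818, 0.816 and 0.813), and Bmp4 to Il6st, Casp1 and Emp1 (0.773, 0.773 and 0.763).

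Cold exposure was compared with RT in each class of the C57 libraries. In ASC1-like cells, 3 ligands fell and 1 rose. Bmp4 fell furthest, Bmp2 and Bmp5 fell by about the same amount, and Gdf10 rose from a low level. Fitted log2 fold changes come from edgeR's quasi-likelihood test on UMIs summed by library and class. Benjamini-Hochberg adjusted p-values were taken over every gene tested in that class. This test gives no standard error (SE). The SE was derived as the absolute log2 change divided by the square root of the F statistic, and is approximate. Of the 7 members tested in ASC1-like cells, 4 were called at an adjusted p under 0.05, where 12.8% of all 12202 genes tested were called. The median log2 change was -0.02 over the 7 members and 0.01 over all genes.

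Bmp4 in ASC1-like cells measured 19.5 and 26 CPM at RT, 1.67 and 1.95 CPM in the cold, and 2.69 and 8.98 CPM under CL. The 2 cold libraries lay below both RT libraries, by a log2 change of -3.46 ± 0.43 (SE, 2 against 2 libraries, adjusted p = 0.0021). The counts behind these values were 120 and 47.9 UMIs at RT against 16.9 and 25.8 UMIs in the cold, from 1170, 1164, 2760 and 2270 cells. ASC1-like cells held 36.1% and 35.2% of the Bmp4 UMIs of a Lin- library at RT against 19.7% and 17.3% in the cold.

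Bmp5 measured 123 and 204 CPM at RT, 38.2 and 34.6 CPM in the cold and 47.0 and 64.4 CPM under CL in the same cells. Treated libraries of both kinds lay below both RT libraries. The cold change was -1.97 ± 0.22 on the log2 scale (SE, adjusted p = 0.0014). ASC1-like cells still had 62.5% and 66.6% of the Bmp5 UMIs in the cold.

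Bmp2 in ASC1-like cells measured 22.3 and 40.6 CPM at RT, 7.98 and 5.87 CPM in the cold and 6.46 and 10.4 CPM under CL. Neither treatment overlapped RT, and the cold change was -1.97 ± 0.27 (log2, SE, adjusted p = 0.00275). VSMC-like cells, where Bmp2 was highest, gave -0.11 ± 0.32 for the same contrast.

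Gdf10 in ASC1-like cells measured 14.0 and 17.4 CPM at RT, 36.7 and 59.1 CPM in the cold and 31.5 and 23.3 CPM under CL. Each cold library exceeded each RT library, by 1.75 ± 0.28 (log2, SE, adjusted p = 0.00594). Without the second RT library the change was 1.59 and the adjusted p 0.0549. Of these 4 calls it was the only 1 that was lost when a library was left out. The cold level remained far under that of ASC3-like cells, which had 887 and 1090 CPM in the cold and gave a change of 0.01 ± 0.61.

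The share of ASC1-like cells with a Gdf10 UMI was set beside capillary VEC-like cells, a class in which Gdf10 was low. Free RNA had already been corrected in the deposited counts, which can lower a gene where it is rare. The comparison therefore cannot gauge free RNA. In cells thinned to 1000 UMIs, 1.45% and 1.92% of ASC1-like cells held a Gdf10 UMI at RT against 4.12% and 6.96% in the cold. The values in capillary VEC-like cells were 0.42% and 1.2% at RT, and 0% and 1.23% in the cold. Cells under that depth were left out, which kept 1165 of 1170, 1103 of 1164, 2723 of 2760 and 2234 of 2270 ASC1-like cells and 641 of 756, 203 of 728, 286 of 698 and 222 of 267 capillary VEC-like cells. Unthinned, the ASC1-like shares were 6.5%, 2.84%, 11.9% and 28.6% in the same order, at median depths of 5266, 1589, 3522 and 5631 UMIs per cell in ASC1-like cells and 1631, 787, 913 and 1651 UMIs per cell in capillary VEC-like cells. Of 10 markers listed for ASC3-like cells, Mfap4 (1.74 and 7.9 CPM at RT, 54.7 and 44.5 CPM in the cold) and Fhl2 (2.41 and 6.78 CPM, then 30.0 and 27.8 CPM) were higher in ASC1-like cells of the cold libraries, whereas C7 (4.59 and 5.77 CPM, then 1.08 and 0.74 CPM) and Inmt (141 and 116 CPM, then 54.6 and 98.0 CPM) were lower. Over the 10 markers, 3 were higher in both cold libraries (Fxyd6 as well), 4 were lower (Clec11a and Fbln1 as well) and 3 overlapped. The summed list was 545 and 959 CPM at RT against 943 and 739 CPM in the cold, of which Mgp, not highest in ASC3-like cells, was 230 and 575 CPM, then 665 and 420.5 CPM. Without Mgp the sum was 315 and 383 CPM at RT against 278 and 318 CPM in the cold. The part of ASC3-like RNA in the Gdf10 result was not tested.

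**Figure D2:**
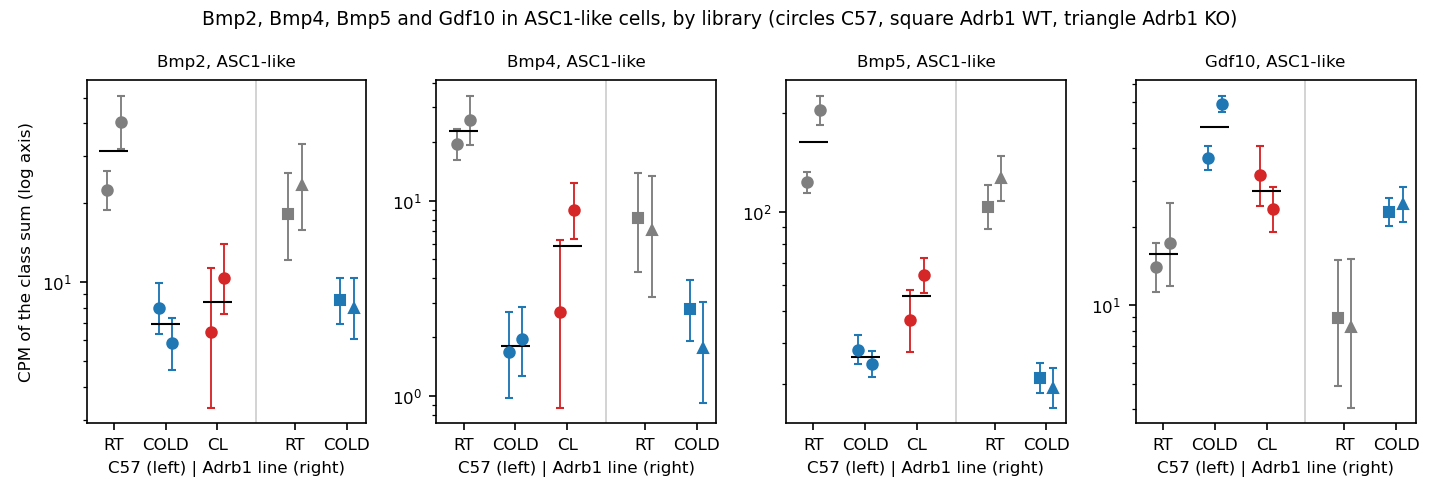
Bmp2, Bmp4, Bmp5 and Gdf10 in ASC1-like cells of each of the 10 Lin- libraries, in CPM on a log axis. Points are libraries with exact 95% counting intervals, circles are C57, squares WT and triangles KO of the Adrb1 line, colours are RT (grey), COLD (blue) and CL (red), and black lines are means of 2 C57 libraries. In C57 mice Bmp4 falls from 19.5 and 26 CPM to 1.67 and 1.95 CPM and Gdf10 rises from 14.0 and 17.4 CPM to 36.7 and 59.1 CPM.

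No regulator was called in ASC1-like cells after cold exposure. Bmper measured 301 and 425 CPM at RT against 334 and 311 CPM in the cold (0.00 ± 0.32), Fst measured 652 and 828 CPM at RT against 634 and 705 CPM in the cold (0.01 ± 0.48), and Chrdl1 was near 0 (-0.02 ± 0.74). The derived standard errors of 0.32 to 0.74 are imprecise for changes this near 0. They do not show how small a change could be detected, so a small change may have been missed.

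The make-up of ASC1-like cells moved with temperature. The class joined a cluster led by Smoc2, Cxcl14 and Hsd11b1 with a cluster led by Cxcl9, Cxcl10, Ccl2 and Timp1. The second cluster made up 3.68% and 5.84% of the class at RT, 85% and 90.8% of it in the cold and 57.8% and 31.6% under CL. In the Adrb1 line it made up 43.6% (WT) and 47.5% (KO) at RT against 67.7% and 71.9% with cold. Of the 10 ASC1 markers, 9 were more than 2-fold higher in the Smoc2 cluster than in the rest of the Lin- cells (on CPM + 10), but 3 in the Cxcl9 cluster, so the marker support for the name is weaker there. The summed ASC1 markers went from 18249 and 22065 CPM in the C57 RT libraries to 6606 and 6655 CPM in the C57 cold libraries. Each cluster was therefore also fitted alone, a choice made after the data were seen. In the Smoc2 cluster alone, Bmp5 fell by 1.30 (adjusted p = 0.0268) and Gdf10 rose by 1.54 (0.0382), while Bmp4 gave -1.79 (0.149) and Bmp2 -0.85 (0.219), all on the log2 scale, where 1.68% of all genes were called. In the Cxcl9 cluster alone none of 5 members tested was called in edgeR's test (3 at an unadjusted p under 0.05), where 0.586% of all genes were called and 10.8% had an unadjusted p under 0.05, with Bmp2 at -2.61 (adjusted p = 0.0544), Bmp5 at -1.06 (0.176) and Gdf10 at 1.48 (0.418), and Bmp4 did not reach the count filter. Both calls in the Smoc2 cluster depended on single libraries. Gdf10 was lost without the second RT library (adjusted p = 0.0901) or either cold library (0.145 and 0.224), and Bmp5 without either cold library (0.241 and 0.208). No member was called in the Cxcl9 cluster with any 1 of these 4 libraries left out.

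Bmp5 differed in level between the clusters in each C57 library. At RT it measured 126 and 211 CPM in the Smoc2 cluster and 54.0 and 108 CPM in the Cxcl9 cluster. In the cold it measured 68.1 and 56.0 CPM in the Smoc2 cluster and 34.4 and 33.1 CPM in the Cxcl9 cluster. Gdf10 did not differ in that way. The Smoc2 cluster had 13.9 and 17.3 CPM at RT, then 37.4 and 51.0 CPM with cold, and the Cxcl9 cluster had 17.2 and 17.7 CPM at RT, then 36.6 and 59.7 CPM with cold. At RT the Cxcl9 cluster held only 43 and 68 cells, with 27.4 Bmp5 UMIs and 6.7 Gdf10 UMIs over the C57 libraries. A difference in Gdf10 between the clusters at RT could have been missed.

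In the other 8 classes of the C57 libraries edgeR called none of the 39 pairs of member and class after cold exposure. All genes were called at 0.529% in ASC2-like, 0.0579% in ASC3-like, 0.467% in Cilp cluster, 0.0361% in VSMC-like, 1.25% in capillary, 0.894% in pericyte-like, 0% in arterial and 0% in venous cells. At an unadjusted p under 0.05, 7 of these 39 pairs passed, where 5.77% to 12.5% of all genes did in the 8 classes. Bmp6 in capillary VEC-like cells measured 104 and 198 CPM at RT against 104 and 144 CPM in the cold (-0.23 ± 0.25). Bmp3 in ASC2-like cells measured 35.3 and 71.3 CPM at RT against 89.7 and 61.7 CPM in the cold (0.65 ± 0.21, adjusted p = 0.324), and Bmp4 in the Cilp cluster gave -1.18 ± 0.40 (adjusted p = 0.342). Chrdl1 in ASC3-like cells measured 342 and 532 CPM at RT against 182 and 306 CPM in the cold (-0.74 ± 0.50).

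**Figure D3:**
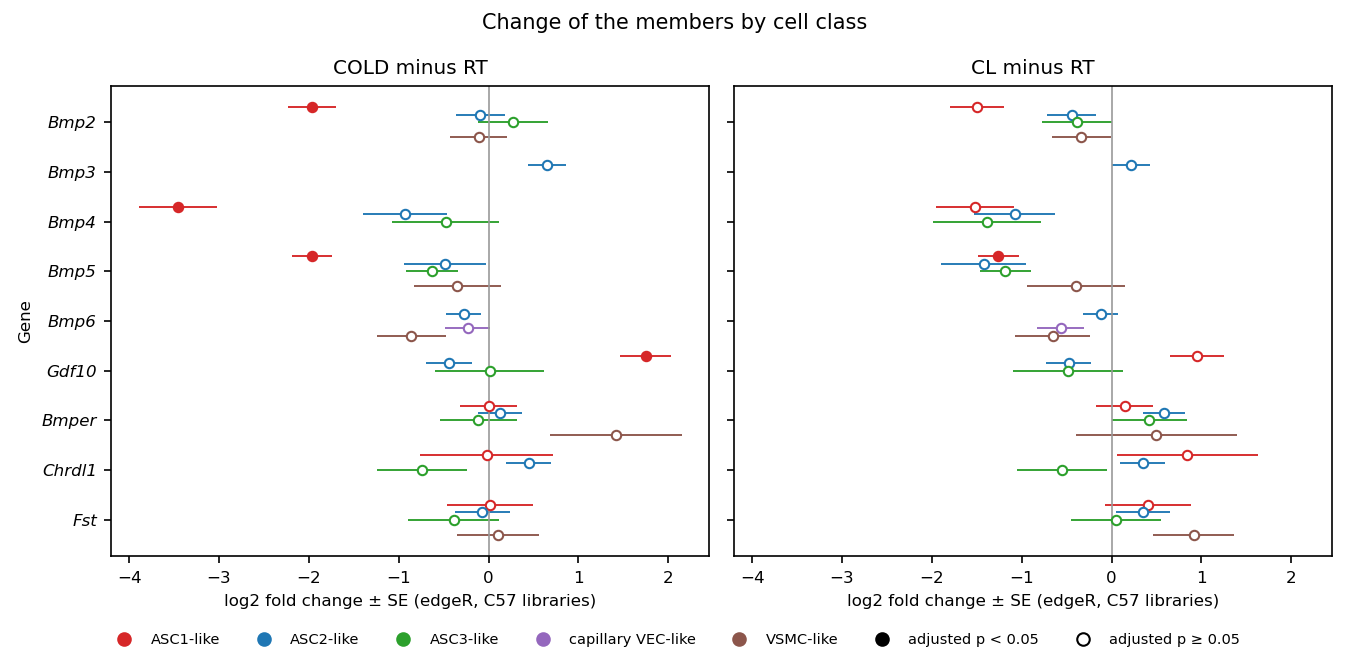
Log2 fold change (x axis, ± SE) of each member tested, for COLD against RT and CL against RT in the C57 libraries, in ASC1-like, ASC2-like, ASC3-like, capillary VEC-like and VSMC-like cells. Filled points passed an adjusted p of 0.05. The filled points are Bmp2, Bmp4, Bmp5 and Gdf10 after cold and Bmp5 under CL, all in ASC1-like cells.

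Whether ASC1-like cells responded differently from another class was tested in a fit of both classes with a term for class by treatment. Positive values mean that a gene fell less, or rose more, in the other class than in ASC1-like cells. After cold, 9 of 23 pairs were called. Against ASC2-like cells, 4 of 9 members differed, where 8.83% of all genes did: Bmp2 by 1.91 ± 0.22 (adjusted p = 8.08e-05), Bmp4 by 2.54 ± 0.40 (0.000831), Bmp5 by 1.53 ± 0.42 (0.0326) and Gdf10 by -2.19 ± 0.18 (5.21e-06). Against ASC3-like cells, 3 of 7 members differed, where 5.41% of all genes did: Bmp2 by 2.25 ± 0.39 (0.00766), Bmp4 by 2.97 ± 0.42 (0.00232) and Bmp5 by 1.36 ± 0.20 (0.0029). Against all VEC-like cells, 2 of 7 members differed, where 4.76% of all genes did: Bmp2 by 3.17 ± 0.63 (0.0215) and Bmp4 by 4.04 ± 0.46 (0.00205). Bmp2 reached the count filter in no endothelial class alone, and it entered this fit through its counts in ASC1-like cells. Its VEC-like side rested on 6.8 UMIs at RT and 13.8 UMIs in the cold, so this call says little about endothelial cells. VEC-like cells included 756 and 728 capillary and 90 and 128 venous cells at RT, then 698 and 267, and 156 and 152, in the cold. Mean Bmp4 was 9.41 CPM at RT and 14.3 CPM in the cold over all VEC-like cells. In venous, capillary and arterial cells it was 48.9, 4.78 and 3.53 CPM at RT against 38.8, 1.27 and 17.2 CPM. The part of this make-up in the Bmp4 call was not tested.

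Gdf10 in ASC2-like cells measured 62.4 and 80.1 CPM at RT, then 36.6 and 59.8 CPM with cold, so that both cold libraries were the lower ones there. Bmp2 in ASC2-like cells measured 34.8 and 53.3 CPM at RT against 40.9 and 35.6 CPM in the cold, and the RT libraries spanned the cold ones. Bmp4 in ASC3-like cells measured 27.3 and 21.1 CPM at RT against 19.7 and 16.9 CPM in the cold. In ASC2-like cells Bmp4 measured 13.7 and 17.9 CPM at RT against a mean of 7.39 CPM in the cold, so it was lower there as well. Several of these calls were lost when any of several libraries was left out. Bmp2 against VEC-like cells was lost without each of the 4 libraries in turn (adjusted p 0.102 to 0.156). Bmp2 against ASC3-like cells was lost without either cold library (0.0569 and 0.0719) or the second RT library (0.0621), and Bmp5 against ASC2-like cells without either cold library (0.146 and 0.111) or the first RT library (0.196). Bmp4 against ASC2-like cells was lost without the second cold library (0.117). The other 5 calls held without each library.

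CL infusion, which stimulates ADRB3 without cold, was compared with the same RT libraries. In ASC1-like cells Bmp5 fell by 1.26 ± 0.23 on the log2 scale (SE, 2 against 2 libraries, adjusted p = 0.0352), the only call among 7 members tested, where 1.25% of all genes were called. The median change was 0.14 over the members and 0.00 over all genes. In the Smoc2 or the Cxcl9 cluster alone no member was called under CL, where 0.443% and 0.205% of all genes were called. Without the first CL library the Bmp5 change was -0.96 (adjusted p = 0.133), and without the first or the second RT library the adjusted p was 0.0863 and 0.177. Bmp2 in ASC1-like cells gave -1.50 ± 0.30 (adjusted p = 0.0547, and 0.0237 with DESeq2), Gdf10 gave 0.95 ± 0.31 (0.217) and Bmp4 gave -1.52 ± 0.43 (0.173). With the replicate number as a block Bmp2 was called as well (-1.51 ± 0.30, adjusted p = 0.0455), beside Bmp5 (-1.29 ± 0.21, 0.0216).

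The 2 CL libraries differed from each other for Bmp4 in several classes. In ASC1-like cells it measured 2.69 and 8.98 CPM, in ASC3-like cells 1.87 and 12.7 CPM, in venous VEC-like cells 13.9 and 53.4 CPM and in arterial VEC-like cells 0.72 and 18.2 CPM, with the first CL library the lower each time. Without the second CL library the ASC1-like change was -3.02 (adjusted p = 0.0139), and without the first it was -0.99. Other members differed between the CL libraries as well. In ASC3-like cells under CL, Gdf10 had a mean of 605 CPM (SD 417), Chrdl1 243 CPM (SD 149) and Bmper 141 CPM (SD 105). The first CL library was the lower for Gdf10 and Chrdl1 and the higher for Bmper. These libraries also differed in composition, with 3157 and 78 capillary VEC-like cells.

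Outside ASC1-like cells no member was called under CL by edgeR, where all genes were called at 0.073% in ASC2-like, 0.0193% in ASC3-like, 0.373% in Cilp cluster, 0% in VSMC-like, 0.482% in capillary, 0.0144% in pericyte-like, 0.0351% in venous and 0% in arterial cells. At an unadjusted p under 0.05, 11 of these 39 pairs passed, where 5.07% to 8.85% of all genes did in the 8 classes. Bmp6 in capillary VEC-like cells measured 95.2 and 86.4 CPM, below both RT libraries (-0.57 ± 0.26, adjusted p = 0.58). Bmp5 in ASC3-like cells measured 18.5 and 29.1 CPM, also below both RT libraries (-1.18 ± 0.29, 0.383). The class difference was called for 1 of 23 pairs, Gdf10 against ASC2-like cells, at -1.43 ± 0.20 (adjusted p = 0.00222, where 0.985% of all genes were called). Against ASC3-like and VEC-like cells no member was called, where 0.205% and 0.354% of all genes were. At an unadjusted p under 0.05, 2 of 9, 3 of 7 and 2 of 7 members passed in the 3 class pairs, where 11.5%, 7.71% and 9.83% of all genes did. Both treatments share the RT libraries, so their values for a member are not independent.

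Cold was then compared over 4 experiments, with the WT and KO pools of the Adrb1 line added and each experiment kept as a block. In ASC1-like cells the 4 ligands were called again among 8 members tested (22.2% of all genes were called), with medians of -0.88 over the members and 0.02 over all genes. Bmp4 fell by 2.70 ± 0.39 (log2, SE, adjusted p = 0.00218), Bmp5 by 1.89 ± 0.17 (0.000245) and Bmp2 by 1.63 ± 0.23 (0.00204), and Gdf10 rose by 1.64 ± 0.23 (0.00192). The direction was the same in all 4 experiments for each of them. In the WT and KO pools alike, kit and collection day changed with temperature. These pools are therefore not independent checks of cold, and the p-values do not account for this.

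Adrb1 itself was sparse in the 3 ASC classes together, with 14.0 and 48.1 UMIs in the WT libraries (1.56 CPM at RT against 2.72 CPM in the cold) and 0 and 7.0 UMIs in the KO libraries (0 and 0.566 CPM). In the Adrb1 line Bmp4 of ASC1-like cells measured 8.11 CPM in WT and 7.05 CPM in KO at RT, against 2.79 and 1.76 CPM with cold. Bmp5 measured 104 and 127 CPM at RT against 31.4 and 29.3 CPM in the cold, Bmp2 18 and 23.4 CPM at RT against 8.51 and 7.99 CPM in the cold, and Gdf10 8.94 and 8.27 CPM at RT against 22.7 and 24.4 CPM in the cold. With 1 library each the genotypes have no replicate check and were not tested. Fst in ASC1-like cells, with similar levels under both conditions in C57 mice, measured 908 and 1049 CPM at RT against 290 and 351 CPM in the cold in this line, where the kit changed with the temperature.

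In the Smoc2 cluster alone the 8-library fit gave -1.24 for Bmp4 (adjusted p = 0.128), -0.95 for Bmp2 (0.0534), -1.31 for Bmp5 (0.00429) and 1.84 for Gdf10 (0.00769). In the Cxcl9 cluster alone it gave -1.88 for Bmp4 (0.0785), -1.62 for Bmp2 (0.0232), -1.40 for Bmp5 (0.00483) and 1.09 for Gdf10 (0.0571). Over the 4 experiments Bmp5 was thus called in each cluster alone, Gdf10 in the Smoc2 cluster, Bmp2 in the Cxcl9 cluster and Bmp4 in neither, where 5.49% (Smoc2) and 9.78% (Cxcl9) of all genes were called.

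Beyond ASC1-like cells, 2 members were called over the 4 experiments. In pericyte-like cells Fst fell by 1.77 ± 0.37 (log2, SE, adjusted p = 0.0128, 1 of 4 members called where 3.13% of all genes were). It measured 498 and 413 CPM in the C57 RT libraries and 223 and 129 CPM in the cold, and in the Adrb1 line 248 (WT) and 437 CPM (KO) at RT against 93.0 and 36.4 CPM in the cold. Every cold library lay below every RT library, but how many of all genes separate like this was not counted. Without the KO pools the change was -1.37 (adjusted p = 0.0753), and in the C57 libraries alone it was -1.36 ± 0.45 (0.269). The markers of other classes in pericyte-like cells changed beside it. The summed VSMC list was 1221 to 1609 CPM at RT against 3214 to 10958 CPM in the cold, and the summed ASC3 list was 5461 to 11561 CPM at RT against 2651 to 3786 CPM in the cold. Fst in VSMC-like cells was 17.7 to 88.1 CPM in the RT libraries. The part of these markers in the Fst result was not tested.

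Bmp2 and Bmper in pericyte-like cells had higher values in each cold library, without a call. Bmp2, which did not reach the count filter in this class, measured 0 to 9.91 CPM at RT against 15.7 to 79.8 CPM in the cold over the 4 experiments. Bmper measured 0 to 13.7 CPM at RT against 15.3 to 72.6 CPM in the cold (2.04 ± 0.54, adjusted p = 0.052). The RT and cold libraries did not overlap in either case, but how many of all genes separate like this was not counted. At an unadjusted p under 0.05, 2 of 4 members tested passed in this class, where 15.4% of all genes did. The C57 counts were 3.9 UMIs of Bmp2 and 15.7 UMIs of Bmper at RT, against 13.7 and 31.7 UMIs in the cold. The summed VSMC list in these cells, given above for Fst, also moved with both, and Bmp2 was highest in VSMC-like cells. Bmper was also higher in the cold in classes where it was low. It measured 6.47 to 15 CPM at RT against 19.3 to 60.9 CPM with cold in immune-like cells of the Lin- libraries, and 3.53 to 8.55 CPM against 9.39 to 15 CPM in all VEC-like cells, without overlap. For these classes, too, how many of all genes separate like this was not counted. VSMC-like cells overlapped, at 1.44 to 18 CPM and 9.93 to 42.5 CPM. The part of RNA or cells of other classes in the pericyte-like values was not tested.

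In ASC3-like cells Bmp3 fell by 2.46 ± 0.41 (log2, SE, adjusted p = 0.0185, 1 of 8 members called where 2.89% of all genes were). The fall was that of the Adrb1 line, from 35.2 to 6.16 CPM in WT and from 30.5 to 3.55 CPM in KO, where kit and temperature cannot be told apart. The C57 libraries had 0.608 and 2.61 CPM at RT against 1.87 and 1.12 CPM in the cold, and the call was lost without the KO pools (adjusted p = 0.143) and with DESeq2 (0.123). Without the WT pools Bmp3 did not reach the count filter in this class, so no value could be had. Nor did it reach that filter in the C57 libraries alone. It entered this fit through the Adrb1 line, where its RT level was high, so this call says little about cold. Chrdl1 in ASC3-like cells measured 342, 532, 441 and 429 CPM at RT against 182, 306, 217 and 265 CPM in the cold, every cold library below every RT library (-0.86 ± 0.24, adjusted p = 0.0786). The number of all genes that separate like this was not counted. At an unadjusted p under 0.05, 4 of 8 members passed in this class, where 25.9% of all genes did. Gdf10 in the same cells measured 746 to 1280 CPM at RT against 887 to 1268 CPM in the cold, and the groups overlapped.

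In the other classes no member was called over the 4 experiments by edgeR, where all genes were called at 2.19% in ASC2-like, 2.12% in Cilp cluster, 0.86% in VSMC-like, 1.82% in arterial, 2.82% in capillary and 0.478% in venous cells. At an unadjusted p under 0.05 there were 1, 2, 3, 2, 0 and 0 members in these classes, of 9, 7, 7, 3, 1 and 3 tested, where 25.9%, 21.9%, 15.8%, 19.1%, 18.6% and 13.3% of all genes passed. Arterial VEC-like cells came nearest. Bmp4 there measured 0 to 7.05 CPM at RT against 16.8 to 25.3 CPM in the cold (2.57 ± 0.69, adjusted p = 0.0693), and Bmp6 measured 14.1 to 26.3 CPM at RT against 28.1 to 72.0 CPM in the cold (1.07 ± 0.30, 0.0762). Neither gene overlapped between RT and cold libraries, but how many of all genes separate like this was not counted. Arterial Bmp4 rested on 5.0 UMIs at RT and 20.8 UMIs in the cold in the C57 libraries. Bmp6 in capillary VEC-like cells overlapped, at 104 to 198 CPM and 89.4 to 144 CPM.

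**Figure D4:**
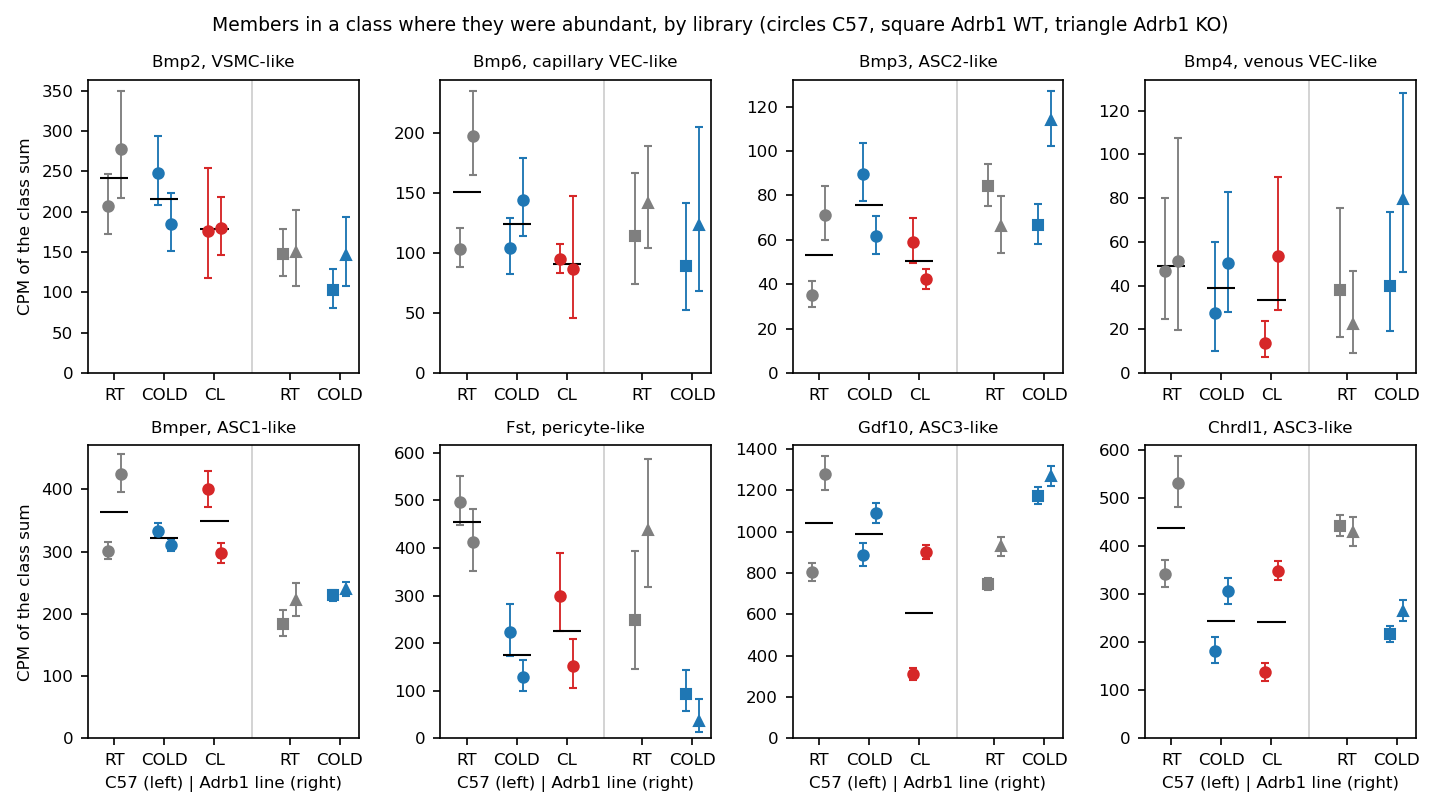
Level of 8 members in a class where each is high (Bmp2 in VSMC-like, Bmp6 in capillary VEC-like, Bmp3 in ASC2-like, Bmp4 in venous VEC-like, Bmper in ASC1-like, Fst in pericyte-like, Gdf10 and Chrdl1 in ASC3-like cells) by library, in CPM, with exact 95% counting intervals. Symbols and colours are those of the plot of ASC1-like cells. Fst in pericyte-like cells goes from 248 to 498 CPM at RT to 36.4 to 223 CPM in the cold, while RT and cold libraries overlap for Gdf10 in ASC3-like cells.

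The contribution of each class to a member's transcripts in a library depends on cell numbers as well as levels. In C57 mice ASC3-like cells held 71.5% and 76.8% of the Gdf10 UMIs at RT against 57.2% and 57.9% in the cold, and ASC1-like cells held 4.7% and 2.5% at RT against 22.4% and 23.6% in the cold. In the Adrb1 line ASC3-like cells held 77.1% (WT) and 92.3% (KO) at RT against 78.9% and 83.7% with cold, and ASC1-like cells 0.4% and 0.597% against 6.12% and 5.26%. ASC2-like cells held 95.5% and 92.5% of the Bmp3 UMIs in the C57 RT libraries, but 62.9% (WT) and 54.1% (KO) in the RT libraries of the Adrb1 line. In the first CL library they held 44.1%, with 33.1% in activated fibroblast-like cells. For Bmp6, the share in ASC2-like cells ranged from 11.2% to 72.3% between the 2 CL libraries, which differed in their number of endothelial cells.

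**Figure D5:**
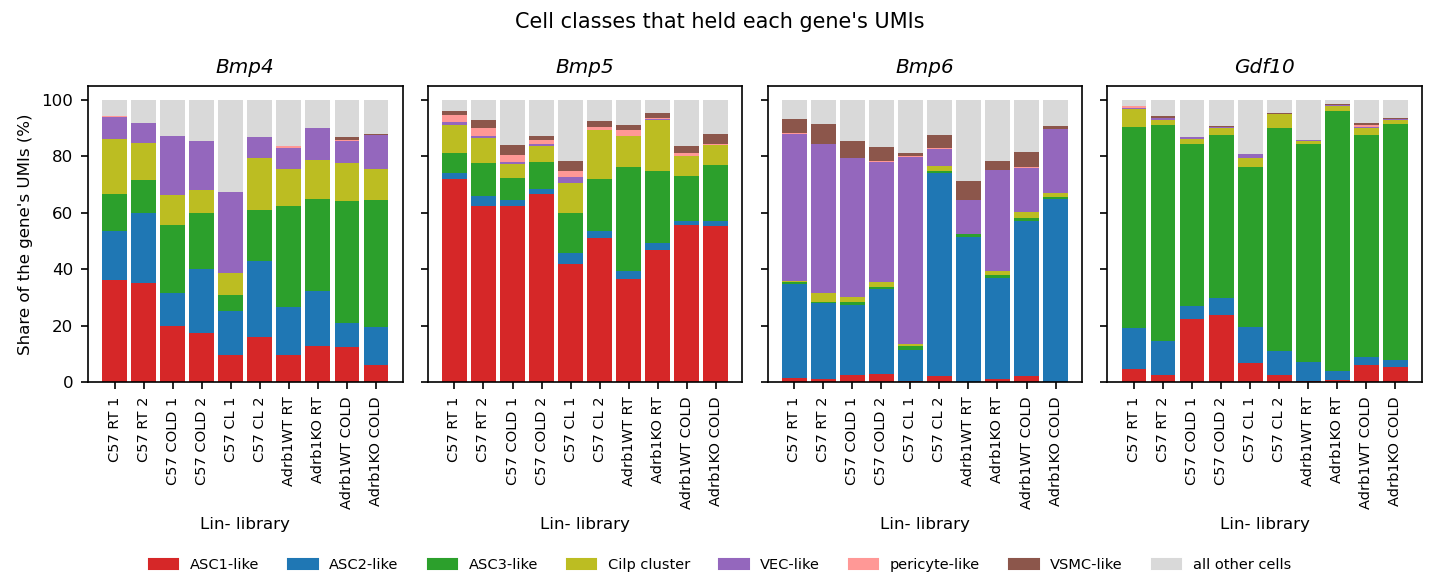
Share of all UMIs of Bmp4, Bmp5, Bmp6 and Gdf10 in each Lin- library (percent, stacked bars from 0) that fell in each class, for the 10 libraries. ASC1-like cells hold most Bmp5 UMIs in the C57 RT and cold libraries, and their part of the Gdf10 UMIs in C57 mice is 4.7% and 2.5% at RT against 22.4% and 23.6% in the cold.

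The members that moved in ASC1-like cells are shown with the 250 bases upstream of their RefSeq gene start (GRCm38.p6), which the tables held for 6 of the 10 members and for 3 of the 4 called genes. Capitals mark the E-box CACGTG, which was chosen after the sequences had been read. It was found in the windows of Bmp4 and Bmp6 and in 6.04% of 32536 such windows. On both strands, the BMP response element GGCGCC (9.65% of windows) was found for Grem1 alone among the 6, and TGACG, a cAMP response half-site (17.9%), and TATAAA (12.3%) in none. The Bmp4 window is chr14:46390670-46390919 (minus strand, 63.2% GC), the Bmp5 window chr9:75775115-75775364 (plus strand, 42.8% GC) and the Gdf10 window chr14:33923337-33923586 (plus strand, 78.8% GC), and the median of all windows was 52.4% GC. Matches and their absence say only which letters these windows hold.
Bmp4 upstream: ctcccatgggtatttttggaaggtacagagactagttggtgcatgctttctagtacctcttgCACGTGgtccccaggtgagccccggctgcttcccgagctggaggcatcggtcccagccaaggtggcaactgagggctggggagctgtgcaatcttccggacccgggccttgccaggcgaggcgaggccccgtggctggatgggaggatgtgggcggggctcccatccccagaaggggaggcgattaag
Bmp5 upstream: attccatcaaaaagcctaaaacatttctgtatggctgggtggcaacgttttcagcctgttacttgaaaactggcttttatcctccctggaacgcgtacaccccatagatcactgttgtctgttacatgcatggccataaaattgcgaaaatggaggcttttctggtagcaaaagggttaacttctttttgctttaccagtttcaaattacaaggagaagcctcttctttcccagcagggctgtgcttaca
Gdf10 upstream: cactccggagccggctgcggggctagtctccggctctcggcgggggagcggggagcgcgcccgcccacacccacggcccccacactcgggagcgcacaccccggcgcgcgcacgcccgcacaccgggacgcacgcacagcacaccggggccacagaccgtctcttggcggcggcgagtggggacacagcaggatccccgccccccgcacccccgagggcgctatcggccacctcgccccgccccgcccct

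Other genes of the pathway were listed by role, 50 in all. After cold in the C57 libraries, 5 of 35 listed genes tested in ASC1-like cells fell and 0 rose, where 12.8% of all genes were called. Of the receptors and co-receptors 3 of 10 fell, namely the BMP co-receptors Rgmb (-1.77 ± 0.19, adjusted p = 0.00125) and Rgma (-1.17) and the type II receptor Acvr2b (-1.47). Of the other secreted antagonists and modulators 2 of 11 fell, the antagonist Chrd (-1.25) and Tll1 (-2.21), a protease known to cleave chordin. None of the 8 targets and feedback inhibitors, 5 intracellular SMAD pathway genes and 1 other ligand tested was called. Rgmb was also the 1 gene of 35 called under CL (-1.25 ± 0.19, adjusted p = 0.0194), where 1.25% of all genes were called.

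In the other classes of the C57 libraries 1 listed gene was called after cold, the inhibitory SMAD Smad6 in capillary VEC-like cells (1.41 ± 0.29, adjusted p = 0.0358, 1 of 24 tested, where 1.25% of all genes were called). Smad6 is a known target of BMP signalling in endothelium. Over the 4 experiments capillary VEC-like cells had a higher Smad6 (1.74) and Eng (1.69), an endothelial co-receptor, and a lower Tgfbr3 (-1.66), 3 of 24 tested where 2.82% of all genes were called. Arterial VEC-like cells had a higher Smad6 (1.77) and Eng (1.41), 2 of 23 tested where 1.82% of all genes were called. In ASC1-like cells of that fit 3 of 38 listed genes rose and 8 fell, where 22.2% of all genes were called. Id2 (0.98) and Smad6 (0.96) rose and Smad7 (-0.72) fell among 8 targets and feedback inhibitors. Among 10 receptors and co-receptors 4 fell, with Acvr2b at -1.62, Rgmb at -1.05, and Bmpr2 and Rgma at -0.94 each. Among 11 antagonists and modulators Fstl3 rose (1.93) and Chrd (-0.97), Tll1 (-2.23) and Twsg1 (-0.76) fell. Bmpr2 fell in the Cilp cluster (-1.20, 1 of 29 tested) and Kcp, a chordin-like protein, in ASC2-like cells (-1.18, 1 of 37 tested), where 2.12% and 2.19% of all genes were called.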

How the data were processed

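Single-cell RNA-seq of iBAT stromal vascular cells was analysed in 20 libraries. The authors made the deposited matrices with Cell Ranger 3.0.1 on mm10 and removed cell-free mRNA with SoupX 1.0.1, taking Fabp4 and Car3 as genes that the cells do not express. The values the authors deposited are therefore expected counts, UMI counts reduced by this correction, that need not be whole. Correction of free RNA can lower a member's counts in classes where it is rare.

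Cells with under 10% mitochondrial UMIs and under 15000 UMIs were kept, with over 100 genes in Lin- and under 4000 genes in Lin+ libraries. The 66339 Lin- cells (median 1203.9 to 3880.9 UMIs per library) were clustered with leidenalg 0.10.2 on 2000 variable genes, 30 principal components and 30 neighbours at resolution 1, after alignment of 6 cohorts. Markers, members and pathway genes (217 in all) were left out of the clustering. Of 32 clusters, 24 were named and 8, with 4047 cells, were not. Doublets were kept, and leaving out the 6% of cells with the highest doublet scores was an alternative.

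Counts were summed by library and class, rounded and tested with edgeR 4.0.16 (TMM, filterByExpr, quasi-likelihood test, two-sided) in R 4.3.3 for classes with at least 20 cells in every library. The Benjamini-Hochberg adjustment ran over every gene tested in a class, with a threshold of 0.05. The 6 C57 libraries shared a fit, 8 libraries were fitted with experiment as a block, and class differences were fitted with library as a block. The script was tested on simulated data. Alternatives were DESeq2 1.42.0, no TMM factors, no filter, cells under 500 UMIs or high doublet scores left out, a replicate block and each replicate left out. The labels number the replicates, and per the study's methods C57 libraries with the same number belong to 1 replicate experiment, so the blocked value is given where it changes a call. Deviations of libraries with the same number correlated over the classes at -0.08 to 0.218 (RT and COLD), -0.141 to 0.021 (RT and CL) and 0.107 to 0.328 (COLD and CL). Counting intervals (exact, 95%) cover counting error only. Replicates of a group differed by more than sampling noise, with chi-square values of 2.565 to 40.352 for each degree of freedom.

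Coordinates are from GENCODE M21 (GRCm38), and 31-base stretches of the members' transcripts were shared with other genes for at most 1.167% of a member. Upstream sequences are from RefSeq, and no entry was used for Bmp2, Bmp3, Fst and Chrdl1. All 10 members are named. From the pathway lists, those past the threshold are named, at most 4 per list by largest absolute log2 change, and from the likeness analysis the 3 genes with the highest r. The members and lists were chosen with earlier results of these data known.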

Additional observations from a re-analysis of the deposited data

Results flagged for a closer look

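The response of 4 ligands to treatment differed between ASC1-like cells and another class by a test of the class by treatment term (edgeR, adjusted p under 0.05), given as the log2 change in the other class minus that in ASC1-like cells. After cold, Bmp2 differed by 1.91 against ASC2-like, 2.25 against ASC3-like and 3.17 against VEC-like cells. Bmp4 differed by 2.54, 2.97 and 4.04 against the same classes. Bmp5 differed by 1.53 against ASC2-like and 1.36 against ASC3-like cells. Of these, the Bmp2 difference from VEC-like cells was lost without each of the 4 RT and cold libraries in turn (adjusted p 0.102 to 0.156), and those of Bmp2 from ASC3-like cells, Bmp4 from ASC2-like cells and Bmp5 from ASC2-like cells were lost without at least 1 of them (up to 0.0719, 0.117 and 0.196). The VEC-like side of the Bmp2 difference rested on 6.8 UMIs at RT and 13.8 UMIs in the cold. Bmp2 entered that fit through its counts in ASC1-like cells and reached the count filter in no endothelial class alone. This difference therefore says little about endothelial cells. The make-up of VEC-like cells also moved with temperature, and its part in the Bmp4 difference was not tested. Among all genes 8.83%, 5.41% and 4.76% differed after cold against ASC2-like, ASC3-like and VEC-like cells. Gdf10 differed from ASC2-like cells in the other direction, by -2.19 after cold and by -1.43 under CL. The share of ASC1-like cells in the Cxcl9 cluster, which went from 3.68% and 5.84% at RT to 85% and 90.8% in the cold in C57 mice and from 43.6% and 47.5% to 67.7% and 71.9% in the Adrb1 line, moved with these values, and its part was not tested.

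Fst was counted in immune cells of the Lin+ libraries, which the comparisons do not use. Its mean under CL was 0.707 CPM (0.351 and 1.06 CPM, from 5 and 9 cells), against 0.24 and 0.104 CPM at RT. These levels rest on 4.9 and 8.9 UMIs under CL and 2 and 1 UMIs at RT. Other members with stromal expression were also counted in the second CL library, with 7 UMIs of Gdf10 and 4 of Chrdl1, against 0 to 2 UMIs of each in the RT libraries. The part of stromal RNA or cells in the Fst value was not tested.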

How the results depend on the processing

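No call reversed. After cold in the C57 libraries 4 pairs of member and class were called in the main fit, by DESeq2 and with the replicate block, and 6 without a filter. The count was also 4 with each library left out, but without the second RT library Gdf10 in ASC1-like cells was lost (adjusted p = 0.0549) and Fst in pericyte-like cells was gained (0.0125). Under CL the count was 1, and it became 2 with DESeq2, 3 without TMM factors and 8 without a filter, and 0 to 6 with 1 replicate left out. Over the 4 experiments the count was 6, with 10 without TMM factors, 16 without a filter, 9 with no replicate block and the line as a covariate, and 4 to 8 with 1 experiment left out. For class differences the count was 10, and 2 to 8 with 1 library left out, where the value of 2 counts CL pairs alone. With the Smoc2 or the Cxcl9 cluster alone, chosen after the data were seen, the counts were 2 and 0 after cold, 0 and 0 under CL, and 2 and 2 over the 4 experiments. With 1 C57 library left out as well, the cold count was 0 to 2 in the Smoc2 cluster and 0 in the Cxcl9 cluster. The number of all genes called moved over the alternatives too. Under CL in ASC2-like cells it was 8 in the main fit and 0 to 322 in the alternatives. Over the 4 experiments in ASC3-like cells it was 310 in the main fit and 68 to 1600 in the alternatives. The counts of members are therefore not read on their own. The causes were not tested. The highest class at RT was the same for 9 of 9 members in 2 alternatives and for 8 by the unthinned share of cells, where Fst was highest in ASC1-like cells.

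With the replicate block the cold count was 4 and the CL count 2, the pair gained being Bmp2 in ASC1-like cells. The block changed no other call of the C57 treatments.

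Over all genes, 1559 were called in ASC1-like cells after cold (485 to 2593 over the alternatives), 153 under CL (42 to 787) and 2848 over the 4 experiments (1390 to 3977). Without TMM factors the median log2 change of all genes in ASC1-like cells shifted from 0.01 to -0.16 after cold and from 0.00 to -0.22 under CL, and the 4-experiment split went from 1576 higher and 1272 lower to 1176 and 1484. Small classes limit detection, with 78 capillary VEC-like cells in 1 CL library and 6 to 17 Bmp4 UMIs in venous cells.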

Other observations

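Bmp2 was the 1 member with more than about 1 CPM in the immune cells of the Lin+ libraries. It measured 10.4 and 8.14 CPM in the C57 RT libraries, 3.39 and 2.38 CPM in the cold and 8.97 and 4.32 CPM under CL. In the Adrb1 line it measured 4.02 (WT) and 5.08 CPM (KO) at RT, against 2.47 and 0.192 CPM with cold. Each cold library was below the RT libraries of its line, in values that were not tested, and the other members had at most 1.06 CPM. How many of all genes separate like this was not counted. Bmp2 was counted in 55 of 3259 immune cells of the first C57 RT library, and the KO cold value rested on 2 UMIs. The study reports that cold changed which immune cells the tissue held. The part of that change in the Bmp2 values was not tested.

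Members were also counted in small Lin- classes outside the tests. Chrdl1 in activated fibroblast-like cells, a class led by Lrrc15, Cthrc1 and H19, measured 333 (WT) and 430 CPM (KO) at RT against 228 and 223 CPM with cold in the Adrb1 line. In C57 mice it measured 23.7 and 51.1 CPM under CL, from 973 and 216 cells, and 64.6 CPM in the second cold library, from 67 cells, while the other C57 libraries had 1 to 19 such cells. Schwann-like cells held 31.2 to 103 CPM of Chrdl1 over the 10 libraries. Bmp3 in activated fibroblast-like cells measured 31.4 and 18.3 CPM under CL. Bmper was counted in proliferating stromal cells of the cold libraries at 141 and 187 CPM and in differentiating adipocyte-like cells at 101 and 177 CPM.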
